A study of Drosophila melanogaster with 6 samples.

Results

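The genes described are the 8 members of 4 pairs of ribosomal protein genes of the small (40S) subunit: RpS10a and RpS10b, RpS14a and RpS14b, RpS15Aa and RpS15Ab, and RpS19a and RpS19b. They were chosen by name, with earlier results of these data known, and all 8 were found among the 14210 genes listed for each library. Polyadenylated RNA was sequenced from Drosophila melanogaster Schneider 2 (S2) cells, a line grown from fly embryos that has features of blood cells. There were 6 libraries: 3 of wild-type cells and 3 biological replicates of cells made stably deficient in CG1091 with CRISPR/Cas9. CG1091 encodes Tailor, which adds uridines to the 3' ends of RNA. The labels give no further treatment, and they do not say whether the knockout cells are a clone or whether separate cultures gave the wild-type libraries. A p-value here therefore reflects only the spread among the sequenced libraries, part of which may be technical.

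Each ribosome carries a single copy of most of its proteins, so a cell needs them in matched amounts. In the fly, most ribosomal proteins come from a single gene, and a few come from a pair of genes that arose by duplication or by copying of an mRNA back into the genome. Typically such a pair has a copy used in all tissues and a copy with a narrower pattern: RpS10a and RpS19b are known as copies enriched in the germ line. Loss of a single dose of many fly ribosomal protein genes gives the Minute phenotype of slow development and thin bristles, and RefSeq lists a Minute name among the synonyms of RpS10b.

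Levels are given in FPKM, which divides fragments by transcript length and by the size of the library, so that genes can be compared with each other. The effective number of fragments behind each value, recovered from the deposited confidence bounds, summed to 18411809 to 22957816 per library. The edited gene CG1091 stood at 50.7, 51.2 and 47.7 FPKM in wild type and at 22.3, 26.1 and 26.1 FPKM in the knockout. Of 9 blood cell markers that were listed, 8 averaged at least 1 FPKM. Hml and He, which mark blood cells of the larva, were under 2 FPKM in every library. The testis markers summed to at most 0.158 FPKM in any library. Fewer cells that express a gene and less RNA per cell cannot be told apart in such bulk libraries.

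In wild-type cells each pair had a dominant copy, and the dominant copy exceeded the other 2.96-fold in RpS14, the most even pair, and 5283-fold in RpS10, the most uneven. RpS19a was the most abundant member at 2989 ± 40.2 FPKM (SD, n = 3), and ranked 55 among all listed genes by its wild-type mean. RpS10b followed at 2673 ± 24.4, RpS15Aa at 2355 ± 23.9 and RpS14a at 1529 ± 66.2 FPKM. The less abundant copies were spread more widely, with RpS14b at 516.2 ± 29.5, RpS15Ab at 30.7 ± 2.31, RpS19b at 1.45 ± 0.162 and RpS10a at 0.506 ± 0.226 FPKM. No neighbours in this order overlapped in their wild-type ranges. In the knockout the order was the same except that RpS10b stood above RpS19a, and these 2 genes then overlapped.

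**Figure D1:**
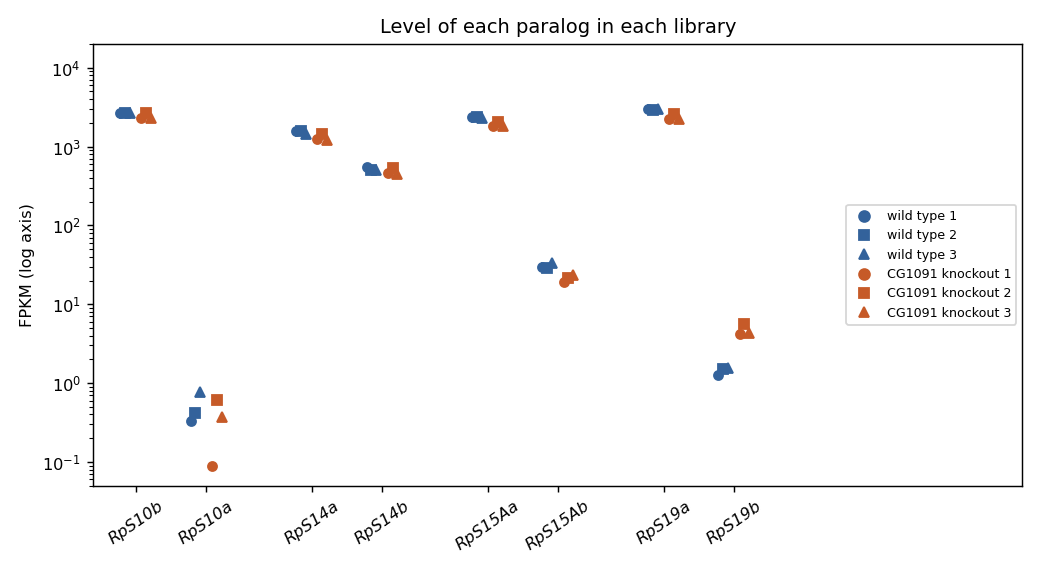
FPKM of each of the 8 genes in each library on a log axis, with the more abundant copy of each pair on the left (blue, wild type; orange, knockout; symbols mark the replicate number). Dominant copies lie between 1220 and 3018 FPKM in every library, and RpS19b is the gene whose knockout values lie above its wild-type values.

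The dominant copies all lie on chromosome X, and the lower copies, RpS14b excepted, lie elsewhere. RpS10a and RpS19b lie on 3R and RpS15Ab on 2R. By the BDGP6 annotation, matched through the transcript identifiers of the files, RpS10a and RpS15Ab have 0 introns in their transcripts, whereas every listed transcript of the other 6 genes has at least 1. The encoded proteins are of like size within each pair, with 163 and 160 residues for RpS10a and RpS10b, 151 for each of RpS14a and RpS14b, 130 for each of RpS15Aa and RpS15Ab, and 156 and 155 for RpS19a and RpS19b.

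In the knockout 6 of 7 tested members passed in limma (adjusted p under 0.05), with 5 lower and 1, RpS19b, higher. Genes were tested where they averaged at least 1 FPKM over the 6 libraries, which left out RpS10a. Of all 7259 tested genes 62.1% passed in either direction, 32.1% lower and 30.1% higher. The groups did not overlap in 6 of the 7, against 67.3% of all tested genes (34.5% lower, 32.9% higher in the knockout). The median log2 change of the 7 members was -0.23, and that of all tested genes was -0.01. With quantile normalization 3 members passed as lower, since RpS10b turned to a log2 change of 0.06 and RpS15Aa stood at -0.02. Without knockout replicate 3 the number was also 3, since RpS10b and RpS14a did not pass. The transcripts are short. By the longest matched BDGP6 transcript, the tested members span 594 to 1469 nt of exon. The 1469 nt of RpS10b exceed its deposited span of 1045 bases, so BDGP6 lengths can differ from those behind the FPKM. The 2069 other tested genes in that range had a median log2 change of -0.11, against 0.04 for 4727 longer genes. The part of length in the members' changes was not tested.

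**Figure D2:**
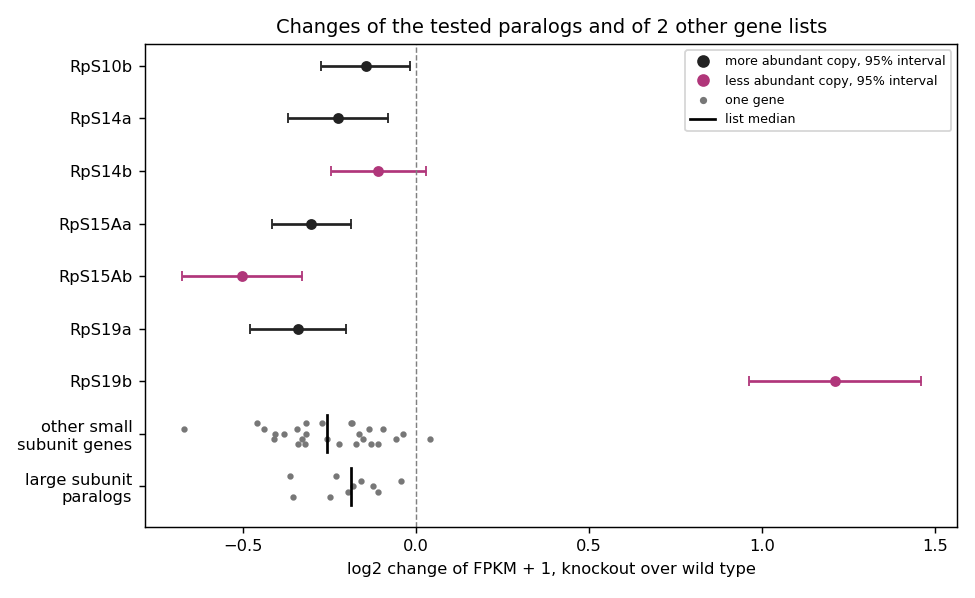
Log2 change of FPKM + 1, knockout over wild type, with its 95% interval from limma for the 7 tested members (black, more abundant copy; magenta, less abundant copy), above the changes of other small subunit genes and of large subunit paralogs (dots, with the list median as a bar). RpS19b at 1.21 lies outside the range of both lists, whose tested genes, RpS6 apart, have far higher FPKM.

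RpS19, a protein of the head of the small subunit and in humans the gene most often mutated in Diamond-Blackfan anaemia, gave the pair whose copies moved in opposite directions. RpS19a (FBgn0010412, chromosome X, 16531912 to 16532953) stood at 3005, 2943 and 3018 FPKM in wild type and at 2221, 2619 and 2261 FPKM in the knockout. The groups did not overlap, and RpS19a fell by 0.34 on the log2 scale (SE 0.063, limma adjusted p = 0.000696). With quantile normalization the log2 change was -0.15 (adjusted p = 0.00366, with 3.92e-06 to 0.00474 over its settings). RpS19b (FBgn0039129, chromosome 3R, 19758451 to 19759252) stood at 1.27, 1.52 and 1.57 FPKM in wild type and at 4.17, 5.61 and 4.33 FPKM in the knockout. Every knockout library was above every wild-type library, and RpS19b rose by 1.21 on the log2 scale (SE 0.112, limma adjusted p = 4.59e-06). That scale of log2(FPKM + 1) understates changes of low genes, and the ratio of the mean FPKM was 3.24. The authors' deposited table gave 17.6 normalised counts in wild type and 59.7 in the knockout, a log2 change of 1.76. The depth for RpS19b was low, with 16 to 21 effective fragments in a wild-type library and 49 to 76 in a knockout library. The counting error was therefore at least 21.8% of a wild-type value and at least 11.5% of a knockout value. Even so, the highest deposited bound in wild type, 2.25 FPKM, was below the lowest in the knockout, 2.98 FPKM. RpS19b remained a minor copy, with 0.0486% ± 0.00559 of the FPKM of the pair in wild type and 0.197% ± 0.0142 in the knockout (SD, n = 3 per group).

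**Figure D3:**
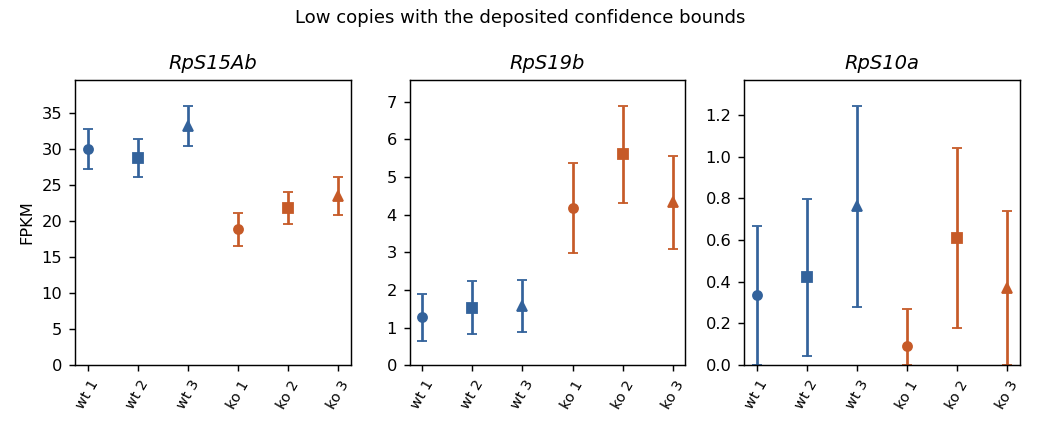
FPKM of the 3 lowest members in each library (blue, wild type; orange, knockout), with bars for the confidence bounds that the authors deposited. The bounds of the groups are separate for RpS19b, barely overlap for RpS15Ab and overlap for RpS10a in all but 1 of the comparisons of a wild-type with a knockout library.

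Germ line markers were measured beside RpS19b, since this copy is known from the germ line. The 10 markers summed to 74.3 to 79.0 FPKM in wild type and 68.1 to 71.3 FPKM in the knockout, and 5 of them averaged at least 1 FPKM. Most of the sum came from krimp and zpg, which fell (log2 -0.20, limma adjusted p = 0.00335, and log2 -0.23, adjusted p = 0.00317). AGO3 and osk rose (log2 0.44, limma adjusted p = 0.00293, and log2 0.29, adjusted p = 0.0276), and aub had a log2 change of 0.22 (adjusted p = 0.0597). The defining germ cell gene vas was at most 0.102 FPKM in any library, and bam, which drives germ cell differentiation, at most 0.237 FPKM. The markers too low to be tested, vas, nos, bam, bgcn and tej, all had a higher mean in the knockout. The groups overlapped for vas, bam and tej. They did not for nos (mean 0.0957 FPKM in wild type, 0.233 in the knockout) and bgcn (0.219 and 0.364 FPKM). The 5 ovarian somatic markers summed to 4.095 to 5.03 FPKM in wild type and 6.12 to 7.20 FPKM in the knockout, with tj at 0 throughout. Of 8 tested blood cell markers 5 rose and 1, Pxn, fell, while the 9 listed summed to 780.3 to 1047 FPKM in wild type and 924.8 to 992.8 FPKM in the knockout. He, 1 of the 5, went from 0.584 ± 0.253 to 1.55 ± 0.268 FPKM (SD, n = 3 per group). Every wild-type library was under 1 FPKM, so He passed the filter only through its knockout values. The filter thus favoured a call as higher, and its place among the 5 carries no weight. Hml, too low to be tested, went from 0.398 ± 0.0189 to 1.52 ± 0.154 FPKM. The part of these markers in the change of RpS19b was not tested.

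In the RpS15A pair, whose protein lies in the body of the small subunit, both copies fell. RpS15Aa (FBgn0010198, chromosome X, 13229806 to 13231687) stood at 2371, 2367 and 2328 FPKM in wild type and at 1843, 2047 and 1847 FPKM in the knockout. The groups did not overlap, and RpS15Aa fell by 0.30 on the log2 scale (SE 0.051, limma adjusted p = 0.000409). With quantile normalization this call was lost (adjusted p = 0.657, with 3.49e-09 to 0.657 over its settings). RpS15Ab (FBgn0033555, chromosome 2R, 6709176 to 6709914) stood at 30.04, 28.7 and 33.2 FPKM in wild type and at 18.9, 21.8 and 23.5 FPKM in the knockout. These groups did not overlap either, and RpS15Ab fell by 0.50 on the log2 scale (SE 0.079, limma adjusted p = 0.000224). Its span overlaps the end of CG12343, which lies at 19.8 FPKM in wild type and 19.1 FPKM in the knockout. The value of RpS15Ab is uncertain for that reason, as the use of strand in counting is not stated. The share of RpS15Ab was 1.29% ± 0.108 of the pair in wild type and 1.11% ± 0.130 in the knockout, with overlapping groups.

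RpS14, a protein of the platform of the small subunit, is encoded by a tandem pair with the most even levels. RpS14a (FBgn0004403, 7827775 to 7828710) and RpS14b (FBgn0004404, 7828931 to 7829832) lie 220 bases apart on chromosome X. The copies are known to encode the same protein and are near-identical in sequence, so how the authors' processing divided their reads is uncertain. RpS14a stood at 1558, 1576 and 1453 FPKM in wild type and at 1257, 1453 and 1220 FPKM in the knockout. The highest knockout library lay just under the lowest wild-type library, and RpS14a fell by 0.23 on the log2 scale (SE 0.066, limma adjusted p = 0.0112). With libraries scaled to equal FPKM sums the log2 change was -0.14 (adjusted p = 0.0184), and without knockout replicate 3 the call was lost (adjusted p = 0.0547, with 0.000165 to 0.0547 over its settings). RpS14b stood at 550.2, 499.4 and 498.9 FPKM in wild type and at 455.3, 526.9 and 455.1 FPKM in the knockout. The groups overlapped, and the log2 change was -0.11 (SE 0.062, limma adjusted p = 0.148). Without knockout replicate 2 RpS14b passed as lower (log2 -0.18, adjusted p = 0.00759, with 0.00759 to 0.723 over its settings). RpS14b held 25.2% ± 1.06 of the pair in wild type and 26.8% ± 0.327 in the knockout (SD, n = 3 per group). These shares were narrowly separate, at most 26.1% in wild type and at least 26.6% in the knockout. The ratio of effective fragments overlapped between the groups. The authors' deposited table gave 19250 and 5909 normalised counts for RpS14a and RpS14b in wild type and 16597 and 5554 in the knockout. These counts, unlike FPKM, are not divided by transcript length. They are group means, so they cannot show whether the groups are separate.

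RpS10, a protein of the beak of the small subunit, was the pair with the widest gap between its copies. RpS10b (FBgn0261593, chromosome X, 19492064 to 19493108) stood at 2660, 2701 and 2659 FPKM in wild type and at 2300, 2650 and 2313 FPKM in the knockout. Knockout replicate 2 lay just under the lowest wild-type library. RpS10b passed narrowly as lower (log2 -0.15, SE 0.059, limma adjusted p = 0.0488). Of 17 other settings 11 lost the call with the same sign, and 1, quantile normalization, turned its sign and did not pass. RpS10a (FBgn0027494, chromosome 3R, 23478482 to 23479085) lies within the span of tau and stood at 0.334, 0.421 and 0.762 FPKM in wild type and at 0.0897, 0.609 and 0.371 FPKM in the knockout. The groups overlapped, and the values rest on 4 to 10 effective fragments in a wild-type library and 1 to 8 in a knockout library. With no filter on low values its log2 change was -0.16 (limma adjusted p = 0.495), and no difference was detectable at this depth.

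The ratio of the copies was taken within each library, and it differed most between the groups for RpS19. The log2 ratio of minor to major copy, on FPKM + 1, moved by 1.55 (SE 0.070) for RpS19, from -10.25 ± 0.104 in wild type to -8.70 ± 0.063 in the knockout. For RpS14 it moved by 0.12 (SE 0.049), and in both pairs the groups did not overlap. The exact two-sided permutation test gave p = 0.1 for each of them, the smallest that 3 libraries against 3 allow, or 0.2 adjusted over the 4 pairs. For RpS15A the difference was -0.20 (SE 0.115, exact permutation p = 0.3, adjusted 0.4), and for RpS10 it was -0.01 (SE 0.169, exact permutation p = 1), with overlapping groups in both. That exact test could not pass a threshold of 0.05 for any pair. The added 1 FPKM shrinks the ratio of low copies, and with 0.1 FPKM added the difference was 1.96 for RpS19 and -0.40 for RpS10. Without wild-type replicate 2 the RpS14 difference was 0.07. On effective fragments the RpS14 difference was 0.13, with overlapping groups (exact permutation p = 0.2). The RpS19 difference on that measure was 1.96 (exact permutation p = 0.1).

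**Figure D4:**
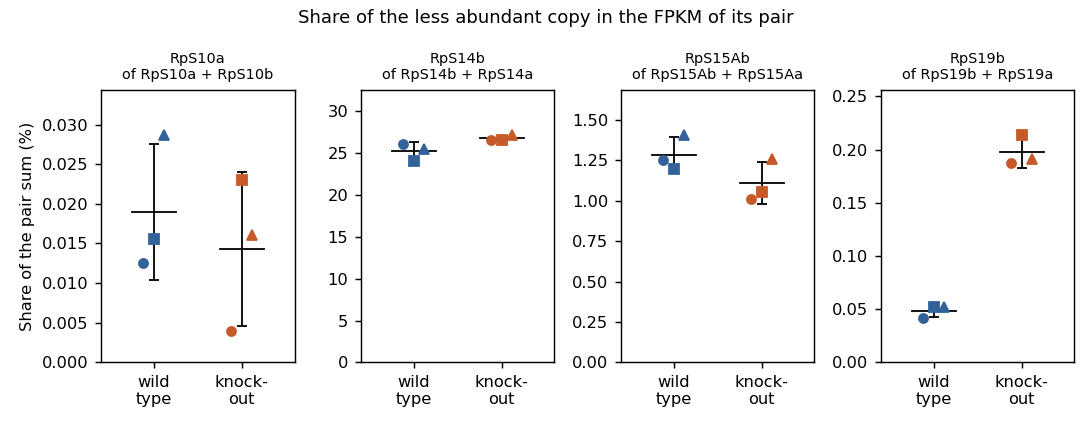
Share of the less abundant copy in the summed FPKM of its pair, in percent, in each library (blue, wild type; orange, knockout; symbols mark the replicate number), with the group mean as a line and the SD as a bar. The share of RpS19b is higher in all 3 knockout libraries, and those of RpS10a and RpS15Ab overlap between the groups. Each panel has its own axis from 0.

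The summed output of each pair followed its dominant copy. RpS19a and RpS19b together stood at 2990.1 ± 40.2 FPKM in wild type and 2372 ± 220.0 FPKM in the knockout (SD, n = 3 per group). The mean of RpS19b went from 1.45 to 4.70 FPKM while that of RpS19a went from 2989 to 2367 FPKM. The 8 genes held 1.496% to 1.502% of the summed FPKM of a wild-type library and 1.304% to 1.42% of that of a knockout library.

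Knockout replicate 2 was higher than the other knockout libraries for 7 of the 8 genes, RpS15Ab excepted. Its FPKM exceeded the mean of knockout replicates 1 and 3 by a factor of 1.15 for RpS10b, 1.17 for RpS14a, 1.11 for RpS15Aa and 1.17 for RpS19a. The factor was above 1 in 26 of 27 tested small subunit genes outside the pairs, with a median of 1.12, and its median over all tested genes was 1.01. This library also had the most effective fragments of the knockout group, 22536308 against 19053147 and 18411809. Its summed FPKM was the highest of that group as well, 656344 against 621110 and 621402. The wild-type sums were 665278 to 677330. The part of depth and of the FPKM sums was not tested. Without it 6 of the 7 members passed as lower, RpS14b now among them. In that fit 2320 of all 7259 tested genes passed as lower and 2117 as higher. Of the 27 small subunit genes outside the pairs 25 then passed as lower, against 19 with all libraries.

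Small subunit genes with no member in the pairs gave changes of the size of the dominant copies. Of 29 names listed for such genes 28 were found, all but sop, and 27 were tested. Of these 19 fell, 0 rose and 8 did not pass, with a median log2 change of -0.26 and a range of -0.67 to 0.04. In limma 0 were higher at an unadjusted p under 0.05 as well, and 0 were higher by limma-voom or in the authors' deposited table. The 4 dominant copies, at -0.34 to -0.15, all lay within that range, whereas RpS19b lay outside it. The tested genes of the list, RpS6 apart, have far higher FPKM than RpS19b, so the list does not match its level. RpS13 and RpS21 fell most (log2 -0.67, limma adjusted p = 2.63e-06, and log2 -0.46, adjusted p = 0.000105). RpS25 and RpS18 were the called genes that fell least (log2 -0.17, limma adjusted p = 0.0286, and log2 -0.15, adjusted p = 0.0275). The direction depended on scaling for part of the list: with quantile normalization 12 genes passed as lower and 5 as higher, and with libraries scaled to equal FPKM sums 15 and 1. RpS6 averaged 2.17 FPKM in wild type, whereas the authors' deposited table gave it 48716 normalised counts. The 8 pair members showed no such gap: their mean effective fragments in wild type were 1.01 to 1.06 times the normalised counts of the authors' deposited table. RpS6 is among the 8 tested genes that did not pass (limma adjusted p = 0.0706). In the authors' deposited table it was lower (log2 -0.35, adjusted p = 1.57e-08). RpS28, a further small subunit protein with 2 genes, had RpS28a listed at 0 in all 6 libraries and RpS28b at 3743, 3631 and 3470 FPKM in wild type.

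Among the paralogs of the large subunit none of those tested rose. Of 13 genes 10 were tested, 7 fell and 3 did not pass, with a median log2 change of -0.19. The list also holds RpL37A, which encodes another protein than RpL37a and RpL37b, and without it, a choice made after seeing the data, 6 of 9 tested genes fell. In limma 0 were higher at an unadjusted p under 0.05, as in the authors' deposited table at an adjusted p under 0.05. RpL10Aa was listed at 0 in every library beside 3134 ± 205 FPKM of RpL10Ab, and RpL22-like stood at 0.113 ± 0.111 FPKM beside 1932 ± 79.4 FPKM of RpL22 (wild type, SD, n = 3). RpL34a and RpL34b were the closest to RpS14 in balance, at 538.3 ± 26.2 and 2358 ± 31.8 FPKM, and both fell (log2 -0.23, limma adjusted p = 0.00259, and log2 -0.36, adjusted p = 8.06e-05). RpL7-like, related to an assembly factor of the large subunit in yeast, fell by 0.36 on the log2 scale (limma adjusted p = 0.000105). RpL7 and RpL24 were the called genes with the smallest falls (log2 -0.16, limma adjusted p = 0.0250, and log2 -0.18, adjusted p = 0.0189).

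The authors' deposited table, in which 36.0% of 11643 genes had an adjusted p under 0.05 (18.3% lower and 17.7% higher in the knockout), listed 4 members as lower and 1 as higher. It gave log2 changes of -0.21 for RpS14a, -0.30 for RpS15Aa, -0.54 for RpS15Ab and -0.30 for RpS19a, all under that threshold. In the authors' deposited table RpS10b (log2 -0.13, adjusted p = 0.0560), RpS14b (log2 -0.09, adjusted p = 0.638) and RpS10a (log2 -0.49, adjusted p = 0.891) did not pass.

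The genes whose pattern over the 6 libraries was most like that of each member were found by Pearson's r on log2(FPKM + 1), as a description. The 6 points fall into the 2 groups, so for a member that differed between the groups a high r can reflect that difference alone. CG15514 was most like RpS19b (r = 0.9989) and went from 34.9 ± 0.486 to 40.7 ± 1.06 FPKM, a much smaller step than that of RpS19b. For the dominant copies the nearest genes were Ciao1 for RpS15Aa (r = 0.9998), Ef1alpha48D, a translation elongation factor gene, for RpS19a (r = 0.9967), CG11444 for RpS14a (r = 0.9946) and CG10674 for RpS10b (r = 0.9908). CG10584 was nearest to RpS14b (r = 0.9966) and CG5044 to RpS15Ab (r = 0.9968).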

How the data were processed

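Per the file headers, the authors deposited Cufflinks tables with an FPKM value and its confidence bounds for each gene and library. For the comparison of the groups, the authors' deposited table has the column names of DESeq: a signal per gene and group (the mean normalised count), a fold ratio, the log2 of that ratio and p-values before and after adjustment. That table divides wild type by knockout, and the sign was reversed here. The submitters' processing notes list Cufflinks 1.3.0 and TopHat 1.4.1 beside DESeq 1.10.1, HTSeq 0.6.1p1 and BWA 0.6.1, with no roles. No source used here names the genome build. Coordinates are as in the files, with starts written 1-based. Introns, exon lengths and protein lengths came from the BDGP6 annotation.

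The members and lists were chosen with earlier results of these data known. Genes averaging at least 1 FPKM (7259) entered limma 3.58.1 (R 4.3.3) as log2(FPKM + 1) values (eBayes with trend and robust settings, Benjamini-Hochberg adjustment over all tested genes, threshold 0.05), after the test was tried on simulated data. Effective fragments were recovered from the bounds, taking the distance from an FPKM to its upper bound as 2 counting errors. Below 30 fragments, 92.6% to 93.1% of the numbers for genes with 1 transcript came within 0.02 of a whole number. Ratios of the copies were compared with exact two-sided permutation tests. The deposited bounds cover counting error only, and limma's intervals the spread between libraries. Named genes were all members, CG1091, the called list genes with the 2 largest and 2 smallest log2 changes, and for each tested member the gene with the highest r. At most 0.0413% of tested genes had equal FPKM in any pair of libraries. Alternatives were other pseudocounts, filters and scalings, eBayes without trend and robust settings, a replicate block, leaving out each library, limma-voom on effective fragments and the authors' deposited table. Promoter and protein sequences were not used here, so the planned comparison of the copies' sequences was not run. One further pair is not reported here, and p-values of the pairs were adjusted over those described.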

Additional observations from a re-analysis of the deposited data

How the results depend on the processing

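Each result was recomputed under up to 17 other settings. RpS15Ab, RpS19a and RpS19b kept direction and call wherever they were tested. When only genes averaging 5 FPKM or more were tested, the count of members higher in the knockout was 0, because RpS19b was no longer tested. The count of members lower in the knockout was 5 in the main fit and ran from 3 to 6 over all settings. It was 3 with quantile normalization and without knockout replicate 3. A count below 5 was more frequent than 5, since RpS10b kept its direction but lost its call in 11 of 17 other settings. With quantile normalization RpS10b turned to a log2 change of 0.056 and did not pass either (limma adjusted p = 0.1465). Called values that moved by more than 1.5 times were RpS19a (log2 -0.15) with quantile normalization, RpS14a (log2 -0.14) with libraries scaled to equal FPKM sums and RpS19b with a pseudocount of 5 (log2 0.59). The RpS10 pair ratio turned positive with a pseudocount of 5 (0.11), without wild-type replicate 3 (0.11) and without knockout replicate 1 (0.10), and it ran from -0.091 to 0.11 when a library was left out. The cause was not tested. Over all settings the ratio difference ran from -0.40 to 0.11 for RpS10, 0.07 to 0.15 for RpS14, -0.29 to -0.13 for RpS15A and 0.93 to 2.06 for RpS19. The smallest size for RpS19 came with a pseudocount of 5.

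Leaving out a library gave 3 to 6 members as lower, 1 as higher and 4004 to 4437 tested genes called. Scaling libraries to equal FPKM sums gave 1691 genes lower and 2780 higher, against 2327 and 2182. Same-numbered libraries did not deviate together (r = -0.049, 0.003 and -0.032). The labels do not say whether equal numbers mark a pair, and 3 libraries per group cannot settle it. With the replicate number as a block 5 members were lower and 1 higher, with 4393 tested genes called, and the exact p of the pair ratio was 1 for RpS10 (difference -0.01) and 0.25, the smallest that 3 pairs allow, for RpS14 (0.12), RpS15A (-0.20) and RpS19 (1.55). A block cannot change these differences when the groups are of equal size. Depth limits what can be said of RpS10a and widens the error of RpS19b.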
